A study of Mus musculus with 4 samples.

Results

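The transcripts described here are 10 genes of the ATF4 arm of the integrated stress response: the transcription factors Atf4, Atf3, Atf5 and Ddit3, the amino acid synthesis genes Asns, Psat1 and Phgdh, and the stress-induced genes Trib3, Chac1 and Sesn2. They were found by the gene name in the scanner files, which gave 14 probes among the 41174 that are no controls, and every probe is given. Cells of C2C12, a mouse myoblast line that fuses into myotubes, were expanded in medium with 10% fetal bovine serum and left to differentiate over 6 days, either in the presence of GDF8 (recombinant mouse myostatin) at 20 nM, renewed every 24 h, or untreated. The labels give that medium as 2% horse serum in one place and 10% in another. Each of 4 arrays compared 1 GDF8 RNA with 1 untreated RNA in 2 colours, with GDF8 in Cy5 on replicates 2 and 3 and in Cy3 on replicates 1 and 4. The labels call the 4 arrays biological replicates, and also call the arrays of replicates 1 and 4 dye swaps, without saying of what or whether any RNA extract was used on more than 1 array. How the cultures were separated is not said, and C2C12 is a single cell line, so p-values speak of these arrays only. In limma, the spread of a probe between arrays is drawn towards a variance shared by all probes. Its SEs and p-values therefore do not give that probe's own spread, which is seen in the ratios of the single arrays.

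In the integrated stress response, kinases that sense amino acid lack, unfolded proteins in the endoplasmic reticulum, heme lack or double-stranded RNA phosphorylate the translation factor eIF2. Most translation then slows, while the Atf4 mRNA is translated more, so that ATF4 protein can rise without more Atf4 mRNA. ATF4 pairs with C/EBP and other bZIP factors on composite sites and turns on genes of amino acid synthesis, transport and tRNA charging, along with Ddit3 (the factor CHOP) and Trib3. TRIB3 is a pseudokinase that holds back ATF4 and CHOP and, in muscle and liver, binds the kinase AKT. GDF8 is a TGF-beta family ligand that signals through activin type II receptors and limits muscle growth.

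The core of the composite ATF4 site is written TGATGNAA. It was searched on both strands of the RefSeq promoter windows of build GRCm38.p6, each 250 bases before to 50 bases after a gene's start, and it was found for 4 of the 10 members against 4.51% of all 27025 genes with a window (4 of 12 windows against 3.97% of 32851). The 4 matches are shown, each within 30 bases read 5′ to 3′ on the strand that carries the match, in capitals, because they mark the members with a candidate ATF4 site near the start. The Trib3 stretch lies at chr2:152344028-152344057 on the + strand (the gene is on the - strand), inside the first transcribed bases. The Atf3 stretch lies at chr1:191183425-191183454 on the + strand (the gene is on the - strand), the Asns stretch at chr6:7693214-7693243 on the - strand, as the gene, and the Chac1 stretch at chr2:119351038-119351067 on the - strand (the gene is on the + strand).
Trib3: ccccgcccggcTGATGTAAacctgagctaa
Atf3: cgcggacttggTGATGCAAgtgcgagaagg
Asns: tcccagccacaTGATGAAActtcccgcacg
Chac1: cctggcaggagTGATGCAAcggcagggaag
A match is a description of the letters and not a measured binding site, and for the other 6 members it says only that these letters are not in this window.

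All 8 skeletal muscle markers examined were well above background in all 8 channels, and of these Ckm (-0.93) and Mef2c (-0.95) had lower log2 ratios with GDF8 at an adjusted p of 0.043 and 0.012 in limma, while 5 of the 8 were saturated in some channel. Myf5, also never saturated, was at 0.03 (adjusted p = 0.97 in limma). Whether the change in Ckm and Mef2c has a part in the results below was not tested. Among 13 markers of fat, endothelial, blood and epithelial cells, Fabp4, Tek and Cd68 were well above background in all 8 channels too. Ptprc and Pecam1 were so in none. Mstn, the gene of the added protein, was well above background in 0 of 4 GDF8 channels and 1 of 4 untreated channels. Red channels were saturated at 9.20% to 12.1% of probe spots and green channels at 0.74% to 5.49%. The arrays' deviations were not independent: the ratio of replicate 1 minus that of replicate 4 correlated with the ratio of replicate 2 minus that of replicate 3 at r = 0.51 across the 26567 probes tested, so replicates 1 and 2 deviated together, and replicates 3 and 4. Probes are not independent and share their arrays, so this is a description. Whether those arrays share RNA was not tested, and each result below is given with these pairs averaged where that changes it.

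Of the 14 probes, 2 rose with GDF8 and 0 fell at an adjusted p under 0.05 (limma, Benjamini-Hochberg over all 26567 probes), against 0.772% of all probes higher and 1.95% lower (0.956% and 2.40% where only probes never saturated are tested). Both were the Trib3 probes, so the count rests on 1 gene, and the members were chosen with earlier results of these data known. At an unadjusted p under 0.05 in limma 3 were higher and 0 lower. Of these, the Sesn2 probe A_51_P161354 had the highest p and ranked 2318 by p among the 26567 probes. The share of all probes at that threshold is not given, so the 3 are not read as a result about the members. By the methods' t-test (an unpaired test on single-channel values) 1 was higher and 0 lower at an unadjusted p under 0.05 and a fold over 1.6. Over all 26567 probes 87 were higher and 353 lower by that rule. After adjustment of that test 0 member probes passed, against 25 higher and 76 lower over all probes. Of the 14 probes 8 (57.1%) had a saturated channel, against 18.5% of all probes tested, and their ratio is limited by the scanner. The other 6 probes, in 5 genes, were never saturated. The median log2 ratio of GDF8 over untreated was 0.32 over the 6 probes never saturated and 0.07 over all 14, against 0.02 over all probes never saturated and 0.01 over all probes. By array, the median of the 6 was 0.46, 0.58, 0.33 and 0.09 on replicates 1 to 4, with 5, 6, 6 and 3 probes above 0. Since 2 of the 6 are Trib3 probes, this is not read as a rise of the members as a whole.

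**Figure D1:**
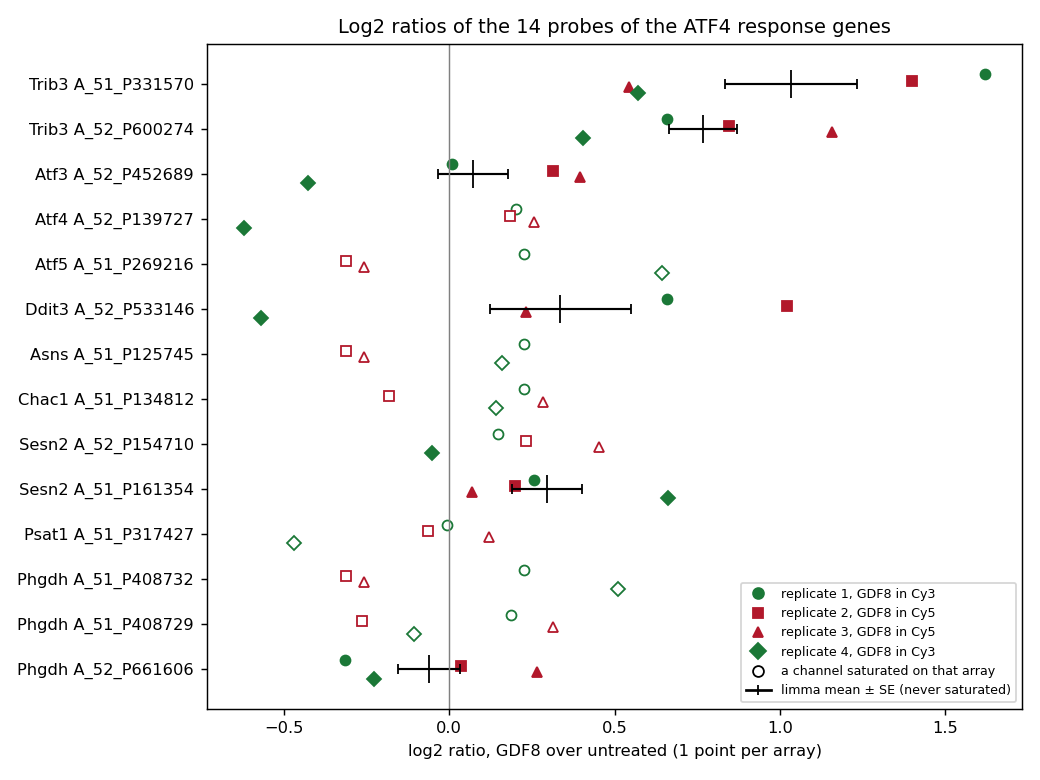
Log2 ratio of GDF8 over untreated cells for each of the 14 probes, 1 point per array, with shape for the replicate, colour for the dye of the GDF8 RNA, and open points where a channel was saturated; black bars give the limma mean ± SE for the 6 probes never saturated. Both Trib3 probes lie above 0 on all 4 arrays, while Ddit3 and Atf3 have replicate 4 below 0.

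Among the 5 genes with a probe never saturated, Trib3 alone was higher at an adjusted p under 0.05 in limma, by both of its probes. Members without such a probe cannot be compared with it. In RNA of a whole culture, more RNA per cell and more cells of a kind cannot be told apart. The first probe (A_51_P331570, the brighter) had log2 levels of 14.61, 14.39, 13.71 and 13.28 in GDF8 channels of replicates 1 to 4, against 12.99, 12.99, 13.17 and 12.71 in untreated channels. All GDF8 levels lay above all untreated levels, a separation seen in 2.00% of probes tested (3.43% had all GDF8 levels below), and the log2 ratios were 1.62, 1.40, 0.54 and 0.57. The mean log2 ratio was 1.03 ± 0.20 (SE from limma, n = 4 arrays), a 2.05-fold rise, with an adjusted p of 0.048 in limma. Replicates 1 and 2 carried the larger ratios, and the pair means were 1.51 for replicates 1 and 2 and 0.56 for replicates 3 and 4. With those pairs averaged the adjusted p in limma was 0.12, without replicate 1 it was 0.096 and without replicate 2 it was 0.13.

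The second Trib3 probe, A_52_P600274, had its largest ratio on another array, replicate 3. Its log2 levels were 12.17, 11.84, 11.53 and 10.98 in GDF8 channels, against 11.51, 11.00, 10.37 and 10.57 in untreated channels. The groups overlapped, while GDF8 was higher within every array, as it was for 7.69% of all probes. The log2 ratios were 0.66, 0.84, 1.16 and 0.40, with a mean of 0.77 ± 0.10 (SE, n = 4 arrays), 1.70-fold, and an adjusted p of 0.015 in limma. Here the pair means were alike, 0.75 for replicates 1 and 2 and 0.78 for replicates 3 and 4, and the adjusted p in limma with pairs averaged was 0.051. It was 0.035 to 0.045 when any 1 replicate was left out. With 1 probe for each gene, the brightest, Trib3 had an adjusted p of 0.055 in limma, and with unpaired single-channel values the adjusted p was 0.095 for the first probe and 0.43 for the second. The log2 ratio of the first exceeded that of the second by 0.27 on average (SD 0.67, n = 4 arrays, from -0.61 to 0.96), on 3 of 4 arrays (exact sign-change test, two-sided, p = 0.50).

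**Figure D2:**
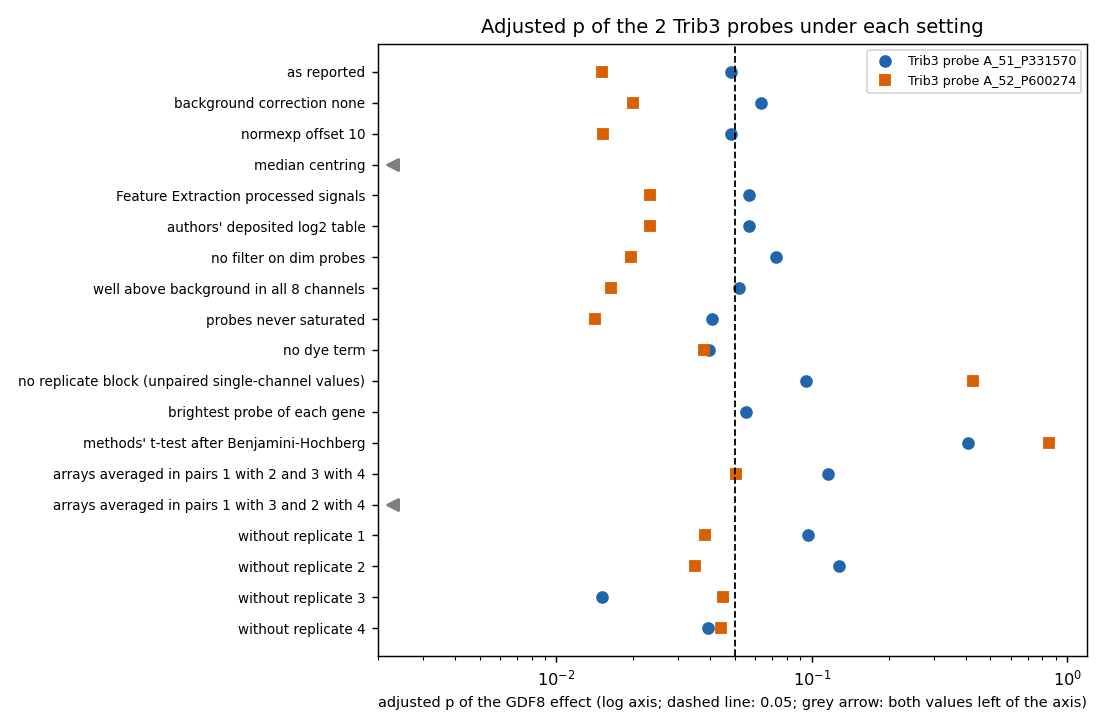
Adjusted p of the GDF8 effect (log axis) for the first (circles) and the second (squares) Trib3 probe under each processing setting, with the threshold of 0.05 as a dashed line and grey arrows where both values are left of the axis. The first probe lies on either side of the threshold, at 0.048 as reported, 0.015 without replicate 3 and 0.13 without replicate 2.

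The ATF4 partner and target Ddit3, which encodes CHOP, was measured by 1 probe that was never saturated. Its log2 levels were 13.64, 13.75, 12.51 and 11.73 in GDF8 channels, against 12.98, 12.73, 12.27 and 12.30 in untreated channels. The log2 ratios were 0.66, 1.02, 0.23 and -0.57, so 3 arrays were above 0 and replicate 4 was below it, and the groups overlapped. The mean was 0.34 ± 0.21 (SE, n = 4 arrays; 95% interval -0.17 to 0.84) with an adjusted p of 0.67 in limma. The spread followed the array pairs, with a mean of 0.84 for replicates 1 and 2 and -0.17 for replicates 3 and 4. Single arrays decided its size: it was 0.030 without replicate 1, 0.14 without replicate 2, 0.53 without replicate 3 and 0.64 without replicate 4, and it passed in none of these fits.

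Atf3, a stress-induced repressor of the same bZIP family, had log2 levels of 12.78, 12.90, 12.44 and 12.08 in GDF8 channels, against 12.77, 12.58, 12.04 and 12.51 in untreated channels. The groups overlapped, and the log2 ratios of 0.01, 0.31, 0.40 and -0.43 ran with the dye: the mean was 0.36 with GDF8 in Cy5 and -0.21 with GDF8 in Cy3. The mean over the arrays was 0.07 ± 0.11 (SE, n = 4 arrays; 95% interval -0.18 to 0.32), with an adjusted p of 0.90 in limma.

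Sesn2, an inhibitor of mTORC1 that senses leucine, had 2 probes. The one never saturated (A_51_P161354) had log2 levels of 13.59, 13.90, 13.53 and 14.07 in GDF8 channels, against 13.34, 13.70, 13.46 and 13.41 in untreated channels. The groups overlapped, and GDF8 was higher within all 4 arrays, as it was for 7.69% of all probes, with log2 ratios of 0.26, 0.20, 0.07 and 0.66. The mean was 0.30 ± 0.10 (SE, n = 4 arrays; 95% interval 0.05 to 0.54), with an unadjusted p of 0.025 and an adjusted p of 0.29 in limma, so it did not pass.

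Phgdh, the first enzyme of serine synthesis, had 3 probes, of which 1 was never saturated (A_52_P661606). Its log2 levels were 14.11, 14.29, 14.21 and 13.71 in GDF8 channels, against 14.42, 14.25, 13.94 and 13.94 in untreated channels. The log2 ratios were -0.32, 0.04, 0.27 and -0.23, split by dye orientation in groups that overlapped, and the mean was -0.06 ± 0.09 (SE, n = 4 arrays; 95% interval -0.28 to 0.16) with an adjusted p of 0.91 in limma.

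**Figure D3:**
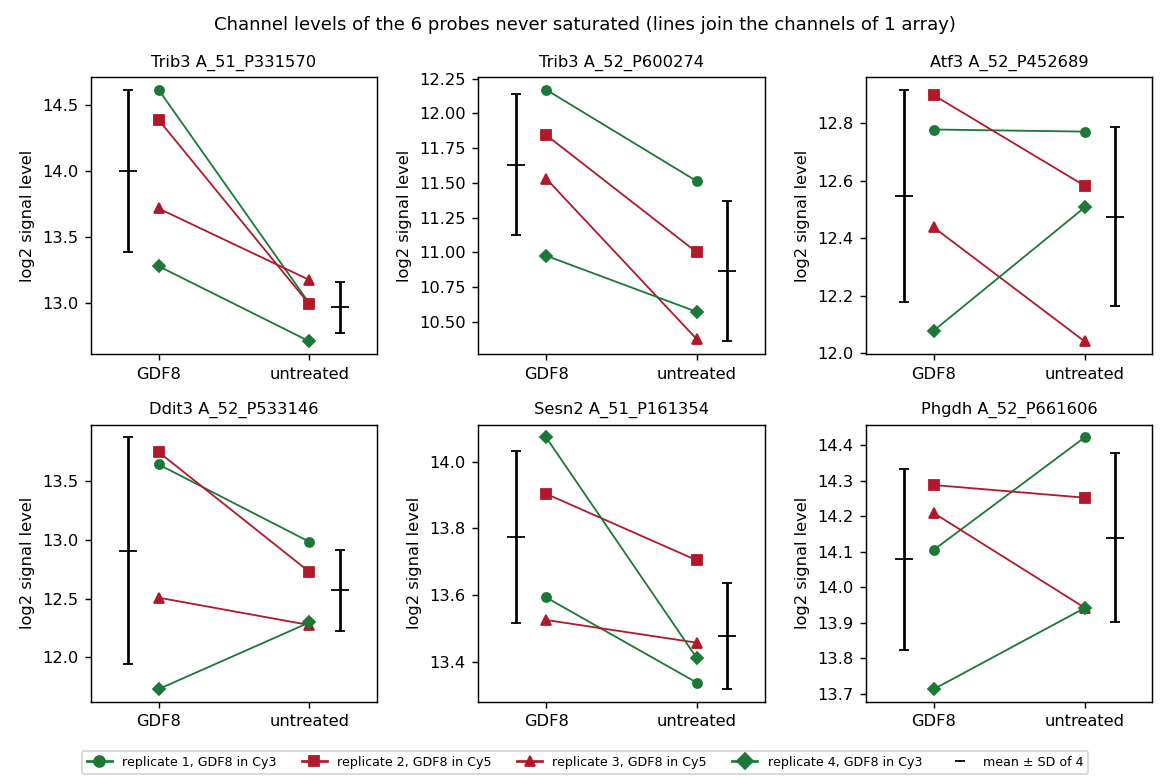
Log2 signal level in the GDF8 channel and the untreated channel of each array for the 6 probes never saturated; lines join the channels of 1 array, and bars give the mean ± SD of 4. Both Trib3 probes are higher in the GDF8 channel on every line, while lines run in both directions for Atf3, Ddit3 and Phgdh.

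Log2 ratios of Trib3 were also set against those of the other members within each array. The first Trib3 probe exceeded Atf3 by 0.96, Ddit3 by 0.70 and Phgdh by 1.09 on average, each on 4 of 4 arrays, and Sesn2 by 0.74 on 3 of 4. The second exceeded Atf3 by 0.69 and Phgdh by 0.83 on 4 of 4 arrays, Ddit3 by 0.43 on 2 of 4 and Sesn2 by 0.47 on 3 of 4. The SDs of these differences over the 4 arrays ran from 0.13, for the second probe against Atf3, to 0.72, for the first against Phgdh. They are given as a description, since Trib3 was singled out by its own call and an exact two-sided sign-change test over 4 arrays cannot give a p below 0.125.

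The remaining 8 probes met the ceiling of the scanner. For Asns, which makes asparagine, for Atf5, a bZIP factor also translated under eIF2 phosphorylation, and for the Phgdh probe A_51_P408732, 3 of 4 GDF8 channels and 4 of 4 untreated channels were saturated. Their log2 ratios on replicates 1, 2 and 3 were all 0.23, -0.31 and -0.26, which are the medians of every probe saturated in both channels there (2100, 1584 and 1863 probes). These values therefore carry no information on the genes, and no ratio or fold is given.

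Chac1, which breaks down glutathione, was saturated in 3 GDF8 and 2 untreated channels, with at least 1 on every array. Psat1, the second enzyme of serine synthesis, and the Phgdh probe A_51_P408729 were each saturated in the Cy5 channel of all 4 arrays, that is in 2 GDF8 and 2 untreated channels. The log2 ratios of Chac1 were 0.23, -0.18, 0.28 and 0.14, and those of Psat1 were -0.01, -0.07, 0.12 and -0.47. The Phgdh probe gave 0.19, -0.26, 0.32 and -0.11. With a saturated channel on every array these are limited by the scanner, and no direction is read from them.

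Atf4 itself was saturated in 3 GDF8 channels and 1 untreated channel, and the Sesn2 probe A_52_P154710 in 2 and 1. The single array with no saturated channel, replicate 4, gave a log2 ratio of -0.62 for Atf4 and -0.05 for that Sesn2 probe, and replicates 1 to 3 gave 0.20, 0.18 and 0.26 for Atf4 and 0.15, 0.23 and 0.45 for that Sesn2 probe. Its untreated Atf4 signal of 64795 still lay close to the value of 65261 at saturated spots, above 16987 in the GDF8 channel (mean signals before correction and of unlike dyes). In limma 0 of these 8 probes passed. Saturation does not only shrink a ratio: probes saturated in both channels had medians of 0.23, -0.31, -0.26 and 0.81 on replicates 1 to 4. Neither size nor sign is read from a ratio with a saturated channel, so the lack of calls says little about the genes.

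**Figure D4:**
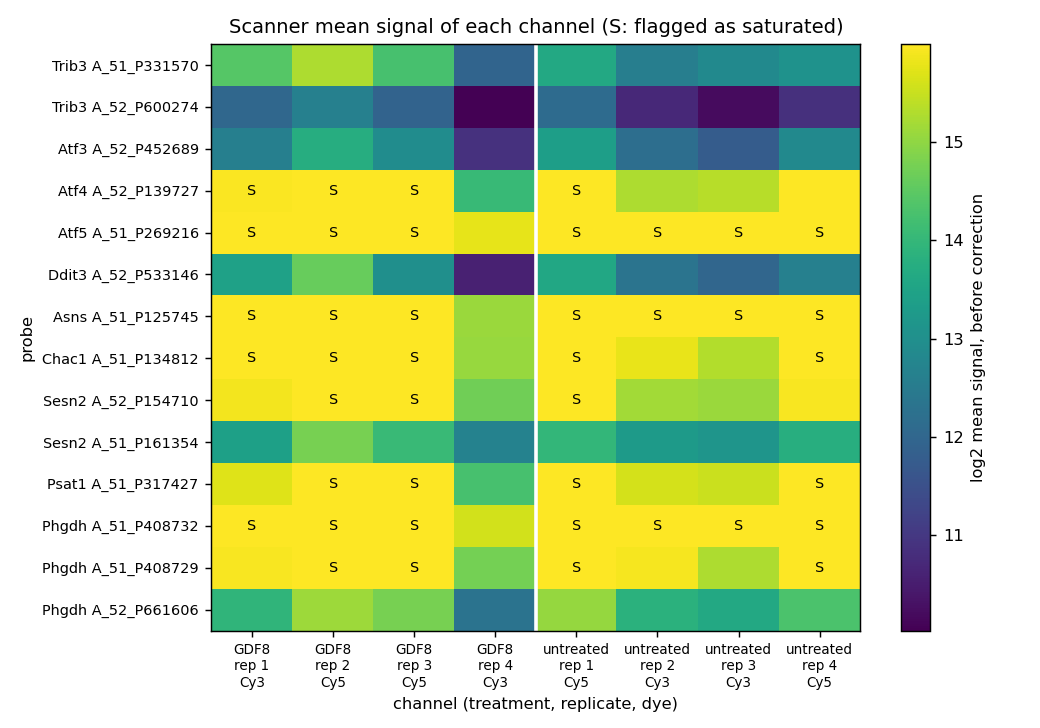
Scanner mean signal before correction (colour, log2) of the 14 probes in the 4 GDF8 and 4 untreated channels, with the dye under each; S marks a saturated spot. The Atf5, Asns and A_51_P408732 Phgdh probes are saturated in all channels but the GDF8 channel of replicate 4.

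The wider pathway was read through 7 lists of 132 other genes, chosen with earlier results of these data known. Of these, 129 had a probe tested, and a gene stands by its brightest probe. With GDF8 0 were higher and 1 was lower at an adjusted p under 0.05 in limma, against 0.860% of genes higher and 2.31% lower in a fit with 1 probe for each gene. At an unadjusted p under 0.05 in limma 7 were higher and 3 lower. The methods' t-test gave 0 higher and 1 lower at an unadjusted p under 0.05 and a fold over 1.6, against 87 and 353 of all 26567 probes. No share over all probes is given for the unadjusted limma counts, here or below, so they are a description only. For 71 of the 129 that probe had a saturated channel, and 91 genes had a probe never saturated, with a median of 0.04.

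The gene that fell was Txnip, an inhibitor of thioredoxin and of glucose uptake, in the list of ATF4 and CHOP target stress genes. Its log2 ratios were -1.40, -1.35, -1.35 and -1.60 over replicates 1 to 4. The mean was -1.43 ± 0.09 (SE, n = 4 arrays; adjusted p = 0.0065 in limma), and a second probe gave -1.11 ± 0.10 (adjusted p = 0.0065). The other 18 genes of that list did not pass, with Tnfrsf10b, a death receptor, at -0.31 ± 0.10 (adjusted p = 0.22) and Vldlr, a lipoprotein receptor, at 0.23 ± 0.09 (adjusted p = 0.35). The list median was 0.04, with 11 of the 19 genes saturated at the brightest probe. It was -0.004 over the 11 with a probe never saturated.

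Amino acid enzymes and transporters that ATF4 is known to induce held the largest positive log2 ratios of these lists. Slc7a11, the cystine transporter, gave log2 ratios of 0.89, 1.00, 0.27 and 0.34, with a mean of 0.63 ± 0.15 (SE, n = 4 arrays; adjusted p = 0.10 in limma). Cth, which makes cysteine from cystathionine, gave 0.85, 0.86, 0.41 and 0.10, with a mean of 0.55 ± 0.15 (adjusted p = 0.13). Both were positive on all arrays, as were 7.69% of all probes, and both were larger on replicates 1 and 2, as for the first Trib3 probe. Neither passed as reported, or with replicates 1 and 2 and replicates 3 and 4 averaged. In limma both passed with median centring in place of loess (adjusted p = 0.0037 for Slc7a11 and 0.028 for Cth). They also passed with replicates 1 and 3 and replicates 2 and 4 averaged (7.1e-10 and 7.7e-08). Averaging in this way cancels what replicates 1 and 2 share. In both of those fits all probes were given 1 variance. Slc7a11 also passed without replicate 3 (0.033). Of the 23 genes tested in that list 0 passed in limma in either direction, 4 were higher and 1 lower at an unadjusted p under 0.05, and the median was 0.04 (0.10 over the 17 with a probe never saturated).

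The other lists had no gene past the threshold in limma. The 19 genes of eIF2, its kinases and phosphatases had a median of -0.02, with Eif2b3, a subunit of the eIF2 exchange factor, at 0.15 ± 0.10 and Ppp1r15b, a regulatory subunit of the eIF2 phosphatase, at 0.13 ± 0.09 (adjusted p = 0.68 and 0.75 in limma). No gene of that list had an unadjusted p under 0.05. The brightest probe was saturated for 9 of the 19, and the median was 0.06 over the 16 with a probe never saturated. The 18 partners and related bZIP factors had a median of 0.09, with Creb1 at 0.25 ± 0.10 and the AP-1 factor Fosl1 at 0.18 ± 0.10 (adjusted p = 0.37 and 0.56). There 1 gene was higher at an unadjusted p under 0.05. Of these 18, 10 were saturated at the brightest probe, and the median was 0.16 over the 11 with a probe never saturated.

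Aminoacyl-tRNA synthetases, which charge tRNAs, stood at a median of -0.01 over 20 genes, 16 of them saturated at the brightest probe and 0 at an unadjusted p under 0.05. Over the 14 with a probe never saturated the median was 0.002. Vars and Wars, both never saturated, gave 0.18 ± 0.10 and -0.19 ± 0.13 (adjusted p = 0.64 and 0.71). The ATF6 and IRE1 branches of the unfolded protein response had a median of 0.00 over 25 genes, with Edem1, which clears misfolded glycoproteins, at 0.35 ± 0.11 (adjusted p = 0.21) and Edem2 at 0.18 ± 0.09 (0.55). Edem1 alone of them had an unadjusted p under 0.05. In this list 15 of the 25 were saturated at the brightest probe, and the median was -0.002 over the 17 with a probe never saturated. Among relatives of the members, Trib2 and Trib1 gave 0.16 ± 0.09 and -0.25 ± 0.14 (adjusted p = 0.59 and 0.60), and none of the 5 had an unadjusted p under 0.05.

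**Figure D5:**
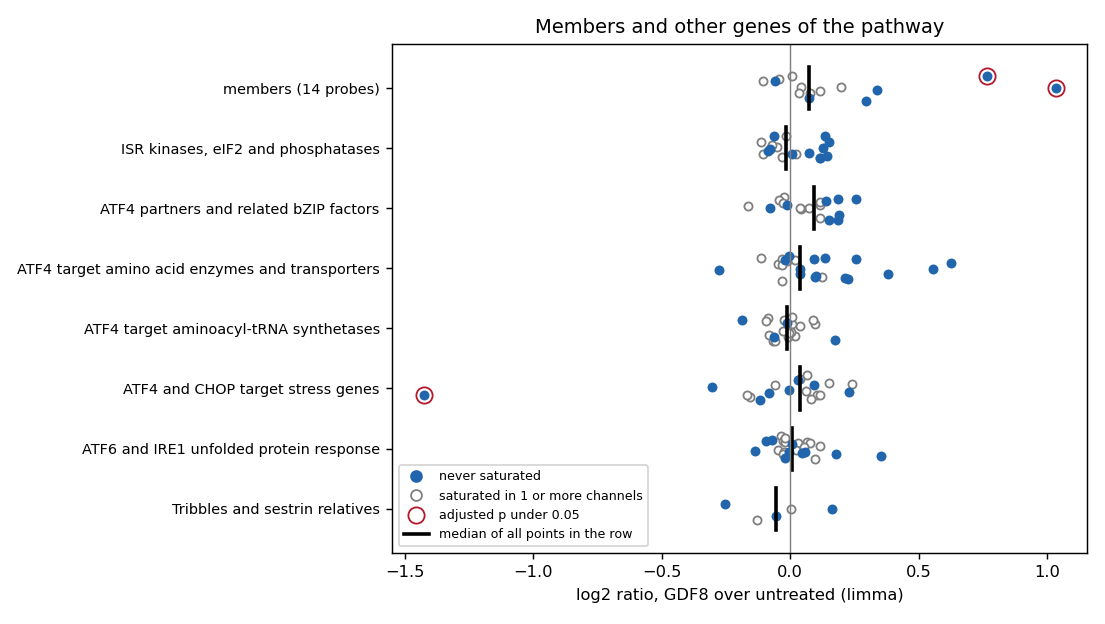
Log2 ratio of GDF8 over untreated (limma) for the 14 member probes and for the genes of 7 pathway lists by their brightest probe; filled points were never saturated, open points were saturated in at least 1 channel, red rings mark an adjusted p under 0.05 and black bars the row medians. Both Trib3 probes stand at 0.77 and 1.03 and Txnip at -1.43, while the row medians lie between -0.06 and 0.09.

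The genes outside the members whose 4 log2 ratios lay closest to those of the first Trib3 probe, by root mean square difference over 4 arrays among 13860 named genes, were Hmmr (0.25), Zfp185 (0.28), Kif11 (0.35), Bub1 (0.38) and Ect2 (0.39). Their mean log2 ratios ran from 0.79 in Bub1 to 1.01 in Zfp185. With 4 arrays such likeness is only a description.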

How the data were processed

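RNA of C2C12 cells was measured on 4 two-colour Agilent arrays on 1 slide. Per the file headers, the authors' scanner files hold spot intensity (mean signal, local background and processed signal), a log10 ratio of red over green, and other columns of flags, from Agilent Feature Extraction 9.1.1.1, and per the series' design text the authors went on with GeneSpring GX 12. The authors' deposited table holds log2 ratios, which equalled the processed log2 ratios turned to GDF8 over untreated within 0.001 in all 40929 probes with 1 spot.

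Here, mean signals were corrected by normexp (offset 50) and normalised by loess within arrays in limma 3.58.1 under R 4.3.3, with control spots at weight 0 and outlier spots left out. Ratios were turned by the dye labels. Probes with a value on every array that were well above background in all 4 GDF8 channels or all 4 untreated channels were tested one by one with a term for GDF8 and one for dye, because every probe of a member was to be shown. Levels are single-channel values after Aquantile. The fit was also run on simulated data, but no outcome of that run is given, so no conclusion is drawn from it. In particular, it is not read as a check on the arrays' shared deviations described above. The members and lists were chosen with earlier results of these data known. All members, the list genes past the threshold and 2 others per list were named, and names came from a RefSeq table of GRCm38.p6. The number of arrays limits the precision. Alternatives covered background, scaling, filters, saturation, dye term, pairing, probe choice, test and left-out arrays.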

Additional observations from a re-analysis of the deposited data

Results flagged for a closer look

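The 4 values of each of 30 measures (ratios and levels of the 6 member probes never saturated, list medians, saturated and detected shares) were searched for 1 array far from the other 3, and 0 stood out by Dixon's criterion at its 95% critical value.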

How the results depend on the processing

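The log2 ratio of Trib3 ran from 0.77 to 1.30 for the first probe and from 0.69 to 0.84 for the second over the alternatives. Both probes were above 0 on all 4 arrays, so leaving out or averaging arrays, or changing the filter or test, could not turn the sign. Only the alternatives for background and scaling, which change the signals themselves, could have done so, and there it stayed above 0. The call of Trib3 did not hold in all alternatives. Against 2 member probes higher as reported, 1 was higher with no background correction, with Feature Extraction processed signals, with the authors' deposited log2 table, without a filter on dim probes, with probes well above background in all 8 channels, and by the methods' t-test at an unadjusted p under 0.05 and a fold over 1.6. With the brightest probe of each gene, with no replicate block (unpaired single-channel values), by the methods' t-test after adjustment and with replicates 1 and 2 and replicates 3 and 4 averaged, 0 were higher. Leaving out 1 replicate gave 1 to 2. With replicates 1 and 3 and replicates 2 and 4 averaged, 4 were higher, among them Ddit3 and Sesn2 (adjusted p = 0.0038 and 0.015 in limma), but averaging in this way cancels what replicates 1 and 2 share, and limma then gave all probes 1 variance, as it did with median centring. Over all probes, 205 higher and 519 lower became 1472 and 1899 in that fit, 29 and 198 with the other pairs averaged, 72 and 319 with no replicate block, 25 and 76 by the methods' t-test after adjustment, and 33 to 161 and 201 to 443 without 1 replicate, lowest without replicate 2. There were 90 higher without the dye term, 87 by the methods' t-test at p and fold, and 84 with a fold over 1.6 added. Without replicate 4, 60 were higher and 211 lower. Pathway genes higher numbered 2 with median centring, 6 with replicates 1 and 3 averaged (Slc7a11, Cth, Bcat1, Edem1, Creb1 and Aldh18a1, with 3 lower, Slc43a1, Tnfrsf10b and Txnip), and 0 to 1 without 1 replicate. Atf3, at 0.07 as reported, turned to -0.036 without replicate 1 and ranged up to 0.18 without another replicate. Ddit3 ranged from 0.030 to 0.64 without 1 replicate. None of the other member probes never saturated changed sign. Saturation leaves 5 of the 10 genes without a usable ratio. Causes of these differences were not tested beyond what is stated.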
